A study of Mus musculus with 5 samples.

Results

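The collagen genes were taken as every row of the gene expression table whose symbol consisted of Col, a type number, the letter a and a chain number, which gave 40 of 28642 rows. By structure these were 11 fibrillar chains, 6 basement membrane chains (type IV), 4 chains of beaded filaments and anchoring fibrils (types VI and VII), 9 fibril-associated chains, and 10 short-chain, multiplexin, transmembrane and remaining chains. RNA came from ES-D3, a mouse embryonic stem cell line that had been infected with a lentiviral short hairpin and selected with puromycin in medium with leukemia inhibitory factor. It was read by Helicos single-molecule sequencing, which has no amplification step, in 5 libraries: 1 with a hairpin against GFP (the control, shGFP), 2 in which Trim28 was targeted and 2 in which Wtx was targeted, each library with a hairpin of its own. Trim28 is a corepressor recruited to DNA by KRAB zinc finger proteins, and Wtx is a negative regulator of Wnt signalling. All cultures had grown on an irradiated feeder layer, which was thinned by replating before extraction, so the RNA can hold transcripts of remaining feeder cells. Each hairpin had a single library, so the p-values rest on the spread between hairpins of a target, which may be technical.

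Collagens are secreted proteins whose chains carry repeats of glycine followed by any pair of residues and wind around each other into a triple helix. Fibrillar types are made chiefly by mesenchymal cells such as fibroblasts and assemble into the banded fibrils of connective tissue, in which type I is the main component and types III and V are partners that join or start the same fibrils. Type IV forms the sheet-like network of basement membranes and is the type laid down earliest in the mouse embryo, by the extraembryonic endoderm. Fibril-associated, beaded filament and transmembrane types link fibrils to their surroundings or to cells.

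Totals of the gene table ranged from 280614 estimated counts in shTrim28 replicate 1 to 1901563 in the other shTrim28 library, replicate 2. Levels below are CPM, the counts scaled to a common effective library size, and intervals are exact 95% Poisson intervals that cover counting error only. Trim28 stood at 783 CPM in the control, at 63.5 and 48.4 with its own hairpins, and at 400 and 396 with the Wtx hairpins, where it was also lower than in the control (log2 fold change −0.97, edgeR adjusted p = 0.0108). Wtx, listed as Fam123b, stood at 15.2 CPM in the control and at 25.7 and 16.7 with the Wtx hairpins (log2 fold change 0.65, edgeR adjusted p = 0.508), so these are called the shWtx-labelled libraries throughout. Counts in genes for odorant, vomeronasal and taste receptors, together called chemoreceptor genes, differed between the libraries. They amounted to 0.175 CPM per kilobase of transcript in the control, 1.16 and 0.794 with the Trim28 hairpins, and 2.32 and 1.96 in the shWtx-labelled libraries. That level multiplied by a gene's transcript length, called the chemoreceptor level below, is given beside the collagen values, and its part in them was not tested.

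The fibrillar collagens stood higher in both shTrim28 libraries than in the control, and most of the added counts were those of 1 gene, Col1a2. In these bulk libraries, more cells of a type and more RNA per cell cannot be told apart. Fibrillar chains summed to 280 CPM in the control, 741 and 843 with the Trim28 hairpins, and 348 and 402 in the shWtx-labelled libraries replicates 1 and 2. Without Col1a2, the other 10 fibrillar chains summed to 139, 279, 284, 169 and 200 CPM in that order of libraries. Col1a2 made up 21.4% of all collagen counts in the control (95% Wilson interval 17.6 to 25.9), 39.2% (33.9 to 44.5) and 44.3% (42.3 to 46.4) with the Trim28 hairpins, and 20.5% (17.5 to 23.7) and 25.3% (20.5 to 30.5) in the shWtx-labelled libraries. The shares in the shTrim28 libraries therefore lay apart from the other 3, whose intervals overlapped. Basement membrane chains had another order, with 146 CPM in the control, 215 and 137 with the Trim28 hairpins, and 157 and 110 in the shWtx-labelled libraries. All 40 genes together summed to 659 CPM in the control, 1179 and 1260 with the Trim28 hairpins, and 874 and 797 in the shWtx-labelled libraries. The chemoreceptor level over the same length was 42.4, 281, 193, 563 and 477 CPM in that order. Less the chemoreceptor level gene by gene, the sums were 625, 997, 1109, 428 and 428 CPM, so the shWtx-labelled libraries changed from above the control to below it. These sums kept the effective library sizes from before subtraction. With sizes taken after it, they were 698, 1201, 1276, 654 and 595 CPM, which put the shWtx-labelled libraries nearer the control. Fibrillar chains alone then stood at 300 CPM in the control and, above it, at 322 and 398 in the shWtx-labelled libraries.

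**Figure D1:**
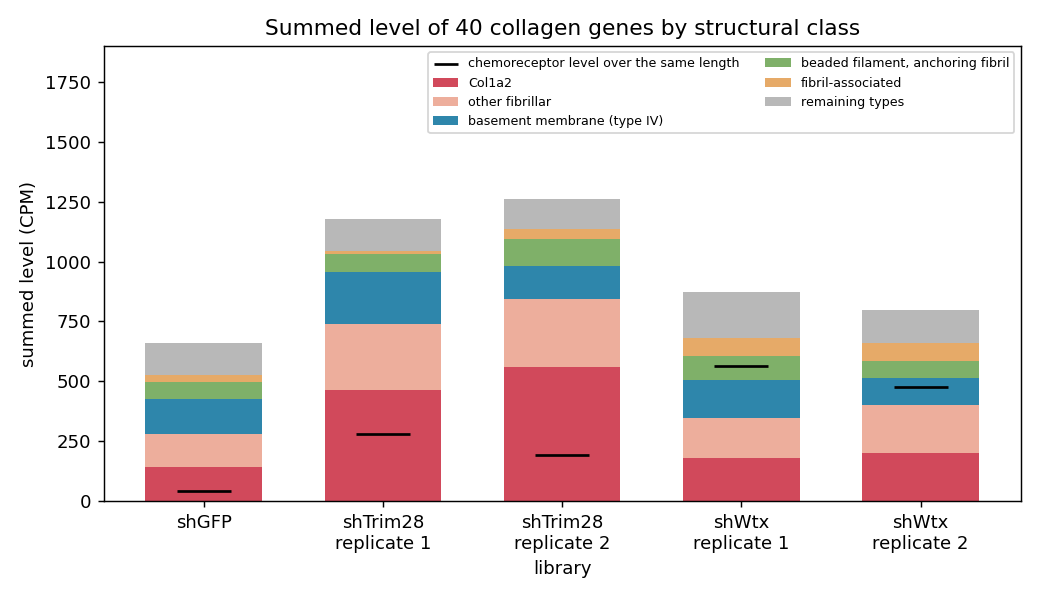
Bars show the summed level in CPM of 40 collagen genes in each of the 5 libraries, split by structural class, with Col1a2 apart from the other fibrillar chains, and black lines mark the chemoreceptor level over the same transcript length. The Col1a2 segment stands at 462 and 559 CPM in shTrim28 against 141 in the control, and the black line is highest in the shWtx-labelled libraries.

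The first comparison set shTrim28 against the control. Of the 40 collagen genes, 17 passed the filter on low counts and could be tested (7 fibrillar, 4 type IV, 3 type VI and 3 others). Col1a2 and Col5a2, both fibrillar, were called higher and 0 were called lower at an adjusted p under 0.05. Among all rows tested, 6.53% were called, 4.27% higher and 2.26% lower. A gene that passed the filter through the group where it was high had to differ, so the count over these 17 supports nothing about collagens as a family. The median log2 fold change was 0.89 over the 17 genes and 0.16 over all rows tested. With DESeq2 size factors, 390 of all rows were called higher and 336 lower in place of 464 and 246, and the collagen calls were again Col1a2 and Col5a2.

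Col1a2 encodes the α2 chain of type I collagen, the chain that pairs with the product of Col1a1 in the usual form of that protein. It stood at 141 CPM in the control (112 to 176), at 462 and 559 CPM with the Trim28 hairpins, and at 179 and 202 CPM in the shWtx-labelled libraries. Both shTrim28 libraries were above every other library. Per kilobase of transcript Col1a2 was the most abundant collagen in all 5 libraries, with 26.4 CPM per kilobase in the control, where Col18a1 followed at 18.8, with an overlapping counting interval, and Col4a1 at 16.1. Relative to the control, and with 510 ± 68.4 CPM (SD, n = 2) in shTrim28, the difference was 1.86 as a log2 fold change (SE 0.31, adjusted p = 0.000201). In the shWtx-labelled libraries, with 190 ± 16.3 CPM, it was 0.41 (SE 0.31, adjusted p = 0.375). Between the hairpin groups it was 1.45, higher in shTrim28 (SE 0.23, adjusted p = 0.000143). Its counts were 151 times the chemoreceptor level in the control, 74.7 and 132 times with the Trim28 hairpins, and 14.4 and 19.2 times in the shWtx-labelled libraries. Without shTrim28 replicate 1 the log2 fold change against the control was 1.98, but edgeR then called 0 rows of any kind (1675 at an unadjusted p under 0.05, adjusted p = 0.328 for Col1a2). Over all alternatives the adjusted p of Col1a2 against the control ran from 3.2e-05 to 0.328.

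Col1a1, the α1 chain of type I collagen, had a smaller difference. It stood at 51.3 CPM in the control (34.8 to 74.6), 105 and 91.6 with the Trim28 hairpins, and 33.9 and 68.9 in the shWtx-labelled libraries. Both shTrim28 libraries were again the highest, and the log2 fold change of 0.89 against the control (SE 0.40) did not pass (adjusted p = 0.207). Against the shWtx-labelled libraries it was 0.99 (SE 0.32, adjusted p = 0.0377), a call that 3 of 11 alternatives kept and that was lost without the shWtx-labelled library replicate 1 (0.44, adjusted p = 0.581). Of the counts of both type I chains, Col1a1 held 26.6% in the control (95% Wilson interval 19.4 to 35.9), 18.5% (13.3 to 25.4) and 14.1% (12.2 to 16.2) with the Trim28 hairpins, and 16.0% (11.2 to 22.9) and 25.4% (17.9 to 34.95) in the shWtx-labelled libraries. The control share lay above that of shTrim28 replicate 2 beyond counting error and overlapped the other 3. Per kilobase of transcript, Col1a1 stood at between 0.15 and 0.33 of the level of Col1a2 in the 5 libraries.

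Col3a1 and Col5a2, which are neighbouring genes on chromosome 1, differed in pattern. Col3a1 encodes the single chain of type III collagen, and Col5a2 the α2 chain of type V, which takes part in starting type I fibrils. Col5a2 stood at 11 CPM in the control (3.94 to 23.4, from 6.14 estimated counts), 67.3 and 45.5 with the Trim28 hairpins, and 20.7 and 17.2 in the shWtx-labelled libraries. Its counts were 9.50 times the chemoreceptor level in the control, 8.78 and 8.65 times with the Trim28 hairpins, and 1.34 and 1.32 times in the shWtx-labelled libraries. Both shTrim28 libraries lay above the other 3, with log2 fold changes of 2.27 against the control (SE 0.57, adjusted p = 0.0153) and 1.45 against the shWtx-labelled libraries (SE 0.40, adjusted p = 0.0144). With the chemoreceptor level subtracted, the change against the control was 2.42 (adjusted p = 0.0586), and without shTrim28 replicate 1 it was 2.06 (adjusted p = 0.328). Col3a1 stood at 40.3 CPM in the control (26.1 to 61.8), 33.6 and 78.4 with the Trim28 hairpins, and 13.9 and 20.1 in the shWtx-labelled libraries. Here the control lay between the shTrim28 replicates, and the log2 fold change of 0.65 against it did not pass (SE 0.44, adjusted p = 0.447) and turned to −0.34 without shTrim28 replicate 2.

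The control was the library richest in Col3a1 relative to Col1a2. Of the counts of these 2 genes, Col3a1 held 22.2% in the control (95% Wilson interval 15.5 to 31.6), 6.79% (3.52 to 12.1) and 12.3% (10.5 to 14.4) with the Trim28 hairpins, and 7.22% (3.95 to 12.7) and 9.04% (4.30 to 17.0) in the shWtx-labelled libraries. The control interval overlapped only that of the shWtx-labelled library replicate 2. The difference was not tested, since the control is 1 library.

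For 3 of the 5 genes called in any comparison, Col1a2, Col3a1 and Col27a1, RefSeq promoter windows were at hand (GRCm38.p6), and they are shown because only these were available. Each sequence below is the 250 bases before the annotated start, on the plus strand, with matches on either strand in capitals. The motifs searched were the CCAAT box, then the binding motif of Sp factors written as GGGCGG, and last the core promoter motif written as TATAAA.
Col1a2, chr6:4505368-4505617: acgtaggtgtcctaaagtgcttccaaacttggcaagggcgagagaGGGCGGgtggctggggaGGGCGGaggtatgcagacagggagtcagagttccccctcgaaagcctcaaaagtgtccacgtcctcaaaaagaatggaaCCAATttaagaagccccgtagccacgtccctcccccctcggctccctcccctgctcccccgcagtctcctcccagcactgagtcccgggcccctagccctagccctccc
Col3a1, chr1:45311288-45311537: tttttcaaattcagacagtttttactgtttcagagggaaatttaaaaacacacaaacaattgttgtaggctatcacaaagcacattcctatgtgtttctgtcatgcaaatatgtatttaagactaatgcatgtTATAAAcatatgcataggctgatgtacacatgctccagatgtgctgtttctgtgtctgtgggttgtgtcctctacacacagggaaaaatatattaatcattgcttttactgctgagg
Col27a1, chr4:63215162-63215411: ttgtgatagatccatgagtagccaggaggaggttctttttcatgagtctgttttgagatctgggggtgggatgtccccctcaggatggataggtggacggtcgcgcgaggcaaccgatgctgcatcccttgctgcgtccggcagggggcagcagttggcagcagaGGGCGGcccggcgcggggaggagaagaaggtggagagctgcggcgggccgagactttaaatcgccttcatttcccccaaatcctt
The Col1a2 window held 1 match to the CCAAT box and 2 to the Sp motif, the Col3a1 window 1 to the TATA motif, and the Col27a1 window 1 to the Sp motif. The CCAAT box occurred in 33.8% of all 32851 windows and in 12 of the 35 windows that 32 of the 40 collagen genes had. The Sp motif occurred in 32.7% and in 19 of 35, and the TATA motif in 12.4% and in 5 of 35. The motifs do not overlap each other in letters, and a match is a description of the letters only.

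The remaining fibrillar genes that could be tested were Col5a1, the α1 chain of type V, and Col2a1, the chain of cartilage collagen, besides Col27a1. Col5a1 stood at 9.15 CPM in the control, 14.9 and 24.2 with the Trim28 hairpins, and 11.8 and 5.73 in the shWtx-labelled libraries. Its log2 fold change against the control was 1.26 (SE 0.77, adjusted p = 0.39), so that the higher values in shTrim28 did not pass. Col2a1 ranged from 11.5 to 23.6 CPM over the 5 libraries and passed in none of the 3 comparisons (adjusted p from 0.49 to 0.957).

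**Figure D2:**
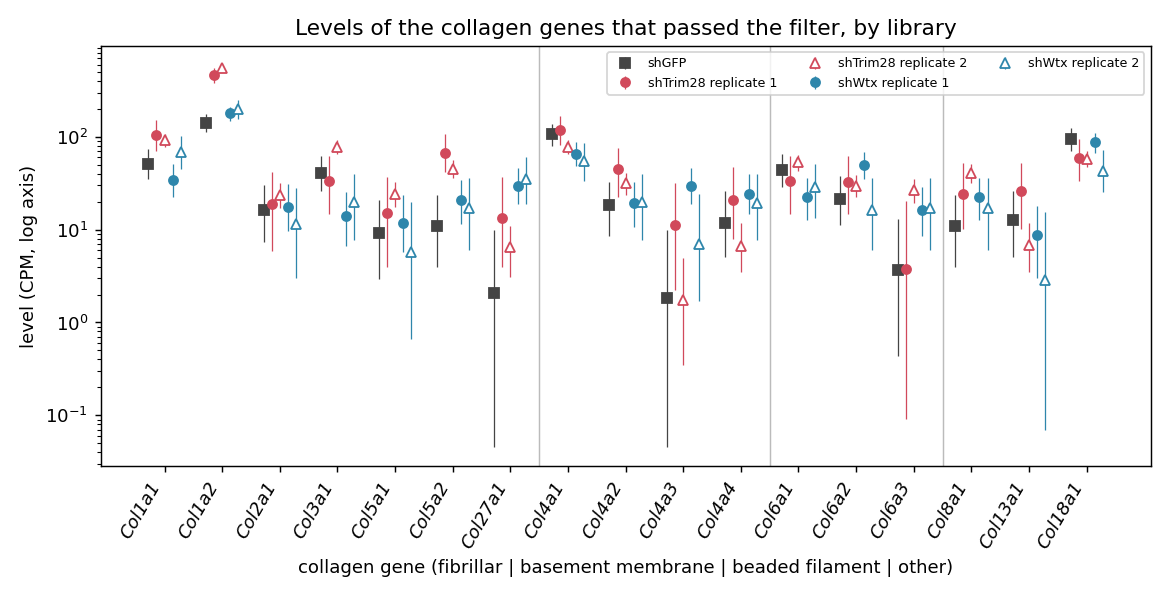
Points give the level in CPM on a log axis of the 17 collagen genes that passed the filter, in each library, with exact 95% Poisson intervals, and grey lines divide the structural classes. Both shTrim28 libraries lie highest for Col1a2 (462 and 559 CPM). For Col4a1 the control (106 CPM) lies between them, and for Col18a1 it lies above them (95.3 CPM).

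None of the 4 type IV genes tested was called in shTrim28 against the control, and 0 had an unadjusted edgeR p under 0.05. Col4a1, the α1 chain of the common basement membrane network, was the most abundant of them in every library, with 106 CPM in the control (80.4 to 136), 120 and 77.2 with the Trim28 hairpins, and 65.9 and 54.5 in the shWtx-labelled libraries. The control lay between the shTrim28 replicates (log2 fold change −0.21, SE 0.34, adjusted p = 0.787), and the sign turned to 0.17 without shTrim28 replicate 2. Its partner Col4a2, the neighbouring gene on chromosome 8, stood at 18.3 CPM in the control, 44.8 and 31.7 with the Trim28 hairpins, and 19.2 and 20.1 in the shWtx-labelled libraries. Both shTrim28 values were above the other 3, without passing (0.95, SE 0.53, adjusted p = 0.338). Col4a1 held 85.3% of the counts of the pair in the control (95% Wilson interval 75.3 to 91.9), 72.7% (59.0 to 84.0) and 70.9% (64.4 to 77.1) with the Trim28 hairpins, and 77.5% (65.6 to 86.0) and 73.1% (55.3 to 86.8) in the shWtx-labelled libraries. All 5 intervals overlapped.

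Col4a3 and Col4a4, the chains of the mature kidney network and neighbours on chromosome 1, had few counts. Col4a3 stood at 1.83 CPM in the control (a single count), 11.2 and 1.73 with the Trim28 hairpins, and 29.9 and 7.05 in the shWtx-labelled libraries. Col4a4 ranged from 6.6 to 24.4 CPM. The shWtx-labelled library replicate 1 was the highest for both genes, where Col4a3 was 1.51 times and Col4a4 1.04 times the chemoreceptor level, and neither gene passed in any of the 3 comparisons. Col4a5 and Col4a6, neighbours on chromosome X, did not pass the filter. Col4a5 was counted at 4.09 in the control, 4.12 and 27.7 with the Trim28 hairpins, and 1.06 and 0 in the shWtx-labelled libraries, which is 0.0967 of the chemoreceptor level in replicate 1 of the latter. Over both libraries of each group, the level of Col4a5 with the Trim28 hairpins was 16.9 times that in the shWtx-labelled libraries (exact 95% counting interval 2.82 to 688). Col4a6 had the opposite order of hairpin groups, at 3.74 and 4.26 CPM with the Trim28 hairpins and 15.6 and 9.22 in the shWtx-labelled libraries. It had 0 counts in the control. Its counts were 0.486 and 0.807 times the chemoreceptor level with the Trim28 hairpins, and 1.016 and 0.707 times in the shWtx-labelled libraries. Col4a6 thus lay near or below that level in each hairpin library, and its order was not tested apart from it.

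Type VI collagen, which forms beaded filaments around cells, was represented by 3 chains. Col6a1 stood at 44.0 CPM in the control, 33.6 and 53.0 with the Trim28 hairpins, and 22.3 and 28.7 in the shWtx-labelled libraries. Its log2 fold change in shTrim28 was 0.07 (SE 0.41, adjusted p = 0.947) and −0.03 with DESeq2 size factors, so no direction can be given. Col6a2, its neighbour on chromosome 10, stood at 21.4 CPM in the control, 32.9 and 29.5 with the Trim28 hairpins, and 50.1 and 16.2 in the shWtx-labelled libraries, which thus disagreed with each other by more than the control differed from shTrim28. Col6a3 rested on 2.04 estimated counts in the control. Its level over both shTrim28 libraries was 6.51 times that of the control (exact 95% counting interval 1.71 to 55.3). That interval leaves out the spread between the replicates, and nearly all of the counts came from replicate 2. Replicate 1 had 1.03 estimated counts (3.74 CPM, 0.0919 to 20.2) and replicate 2 had 47.2 (26.5 CPM). Replicate 1 was thus close to the control at 3.65 CPM, though on a single count, and the gene did not pass (adjusted p = 0.149).

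Among the remaining types, Col18a1 and Col8a1 lay on opposite sides of the control without passing. Col18a1 encodes a multiplexin of basement membranes whose cleaved end is endostatin. It stood at 95.3 CPM in the control (71.1 to 124), 59.8 and 58.2 with the Trim28 hairpins, and 87.0 and 43.0 in the shWtx-labelled libraries. The control was the highest library, with a log2 fold change of −0.70 with the Trim28 hairpins (SE 0.37, adjusted p = 0.296). Col8a1, a short-chain collagen of vessel walls and the cornea, stood at 11 CPM in the control, 24.3 and 41.1 with the Trim28 hairpins, and 22.5 and 17.1 in the shWtx-labelled libraries. Its log2 fold change of 1.76 with the Trim28 hairpins narrowly missed the threshold (SE 0.60, adjusted p = 0.0787). Col13a1, a transmembrane collagen, stood at 26.2 and 6.91 CPM in the shTrim28 replicates, on either side of the control at 12.8.

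**Figure D3:**
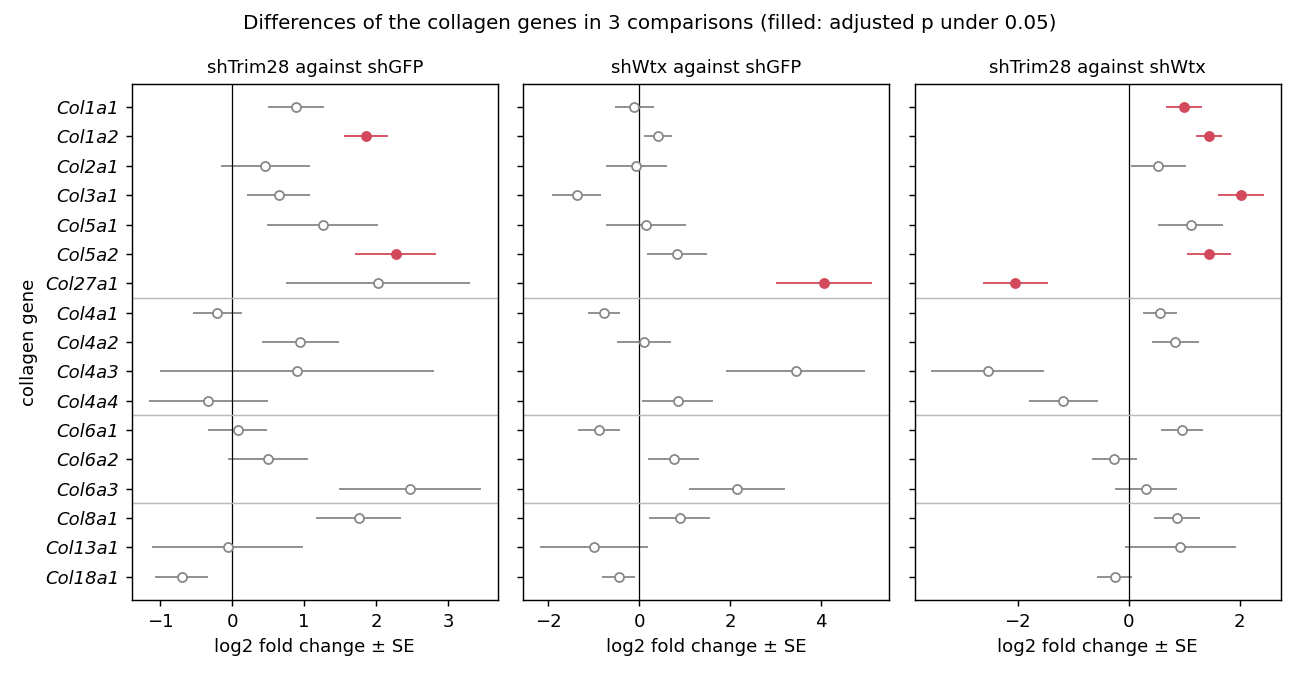
Points give log2 fold changes with their SE for the 17 tested collagen genes in the 3 comparisons, filled where the adjusted p was under 0.05. Filled points are Col1a2 and Col5a2 in shTrim28 against the control, Col27a1 in the shWtx-labelled libraries against the control, and Col1a1, Col1a2, Col3a1, Col5a2 and Col27a1 between the hairpin groups.

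The second comparison set the shWtx-labelled libraries against the same control library, so it is not independent of the first. Col27a1 was the only collagen gene called, and it was higher (4 collagen genes had an unadjusted p under 0.05), while 15.8% of all rows tested were called, 10.9% higher and 4.94% lower. Col27a1 encodes a fibrillar chain of cartilage with interrupted repeats. It stood at 2.10 CPM in the control (1.17 estimated counts), 13.3 and 6.43 with the Trim28 hairpins, and 29.8 and 34.9 in the shWtx-labelled libraries, which were the highest. The level was 18 times that of the control (exact 95% counting interval 3.02 to 730; adjusted p = 0.00981). In every library Col27a1 lay near the chemoreceptor level, at 1.58 times in the control, 1.51 and 1.06 times with the Trim28 hairpins, and 1.69 and 2.33 times in the shWtx-labelled libraries. The fitted log2 fold change was 4.06. It did not pass without the shWtx-labelled library replicate 1 (4.17, adjusted p = 0.184) or without shTrim28 replicate 1 (4.06, adjusted p = 0.177), though it was as large. After subtraction of the chemoreceptor level it was 6.78 and did not pass either (adjusted p = 0.293). All of these values depend on the prior count, since the control had a single count or less. Subtraction brought Col3a1 past the threshold in its place, lower with a log2 fold change of −2.94 (adjusted p = 0.0323), against −1.37 without it (SE 0.54, adjusted p = 0.0834). Of the 17 genes 10 were above 0, with a median of 0.14 against 0.06 over all rows tested.

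The third comparison set shTrim28 against the shWtx-labelled libraries, each with 2 libraries. All 5 genes called were fibrillar: Col1a2, Col3a1, Col5a2 and Col1a1 were higher in shTrim28, and Col27a1 was lower. Over all rows tested, 15.3% were called, 5.45% higher and 9.83% lower. Col3a1 had the largest rise of these, 2.02 as a log2 fold change (SE 0.42, adjusted p = 0.00159), with 56.0 ± 31.6 CPM (SD, n = 2) in shTrim28 and 17.0 ± 4.36 in the shWtx-labelled libraries, where it stood at 1.08 and 1.84 times the chemoreceptor level. The groups did not overlap, but shTrim28 replicate 1 was at 33.6 and replicate 2 at 78.4, and the call was lost without shTrim28 replicate 1 (2.32, adjusted p = 0.157), without replicate 2 (1.00, adjusted p = 0.485) or without the shWtx-labelled library replicate 1 (1.66, adjusted p = 0.182). Col27a1 differed by −2.04 as a log2 fold change (SE 0.58, adjusted p = 0.0179), and it was negative in all 10 alternatives, from −3.86 to −1.19. It did not pass after subtraction of the chemoreceptor level (−3.86, adjusted p = 0.211) or without any 1 of the 4 libraries (−2.36 to −1.19, adjusted p from 0.157 to 0.461). Col5a2 lost its call without shTrim28 replicate 1 (1.25, adjusted p = 0.157), where edgeR called 0 rows of any kind (3113 at an unadjusted p under 0.05), and without the shWtx-labelled replicates 1 (1.63, adjusted p = 0.190) and 2 (1.33, adjusted p = 0.0573), against 1.45 with all libraries. Only Col1a2 passed without the shWtx-labelled library replicate 1.

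The 23 collagen genes that did not pass the filter had between 0 and 27.7 estimated counts in any library, and 9 of them reached 10 counts in some library. Besides Col4a5 and Col4a6 these were Col7a1, Col11a1, Col12a1, Col14a1, Col16a1, Col23a1 and Col25a1. Col7a1, the chain of anchoring fibrils, ran from 1.83 CPM in the control to 14.7 in the shWtx-labelled library replicate 1, and Col11a1, a minor fibrillar chain of cartilage, from 0 (shTrim28 replicate 1) to 13.1 in the shWtx-labelled library replicate 2. Of the fibril-associated genes, Col12a1 ran from 4.10 to 17.7 CPM, Col14a1 from 0 to 14.7 and Col16a1 from 3.74 to 13.8. The transmembrane chains Col23a1 and Col25a1 ran from 1.73 to 17.7 and from 2.24 to 18.3 CPM. For all of these but Col16a1, whose highest library was shTrim28 replicate 2, the highest library was a shWtx-labelled one. All 9 fibril-associated genes were among the 23, and they summed to 29.9 CPM in the control, 14.9 and 40.9 with the Trim28 hairpins, and 71.5 and 74.5 in the shWtx-labelled libraries, or 3.42, 0.258, 1.03, 0.616 and 0.757 times the chemoreceptor level. Together the 23 summed to 61.1 CPM in the control, 87.2 and 99.3 with the Trim28 hairpins, and 221 and 211 in the shWtx-labelled libraries. The chemoreceptor level over the same length was 23.5, 155, 107, 311 and 264 CPM in that order of libraries, so both were lowest in the control and highest in the shWtx-labelled libraries. The 23 genes thus stood at 2.6 times the chemoreceptor level in the control, at 0.562 and 0.932 times with the Trim28 hairpins, and at 0.71 and 0.802 times in the shWtx-labelled libraries. The 17 genes that passed stood at 31.6 times in the control, 8.7 and 13.5 times with the Trim28 hairpins, and 2.6 and 2.75 times in the shWtx-labelled libraries. Genes at 0 counts numbered 8, 11, 1, 0 and 2 in the same order of libraries, where a count of 0 allows up to 5.37, 10.9, 1.68, 4.15 and 8.26 CPM (3 counts).

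**Figure D4:**
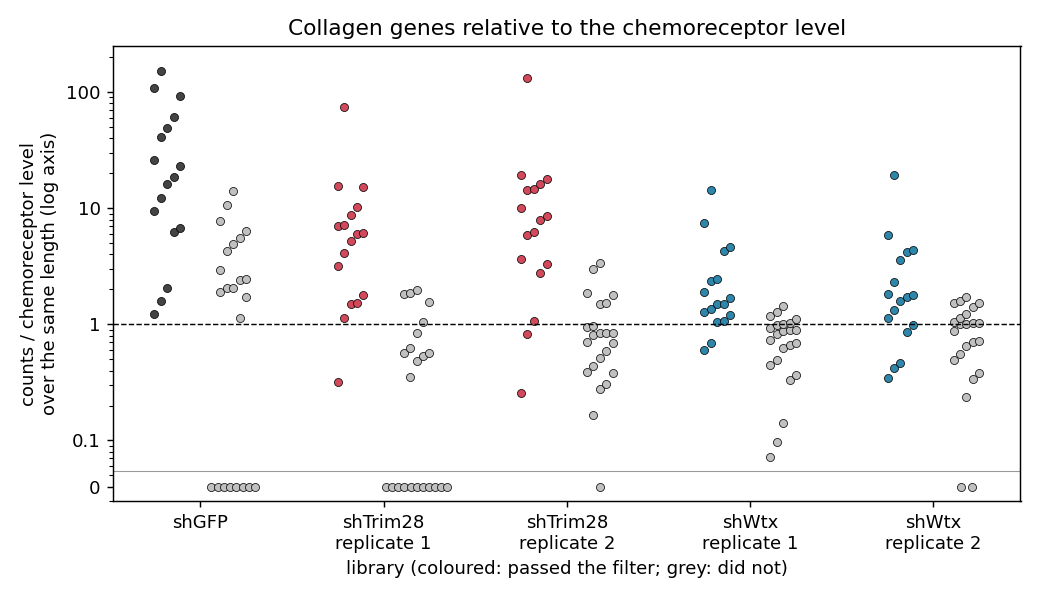
Each point is 1 of the 40 collagen genes in 1 library, placed on a log axis at its counts divided by the chemoreceptor level over its own transcript length, with genes at 0 counts in a strip at the bottom. Grey points, the 23 genes that did not pass the filter, gather around or below 1 in the 4 libraries other than the control, while Col1a2 is the highest point in every library.

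Enzymes and partners of collagen were given as lists. Of 20 tested hydroxylases, chaperones and secretion factors, 1 was called higher in shTrim28 against the control and 0 lower, a share near the 4.27% of all rows called higher, and the list's median log2 fold change was 0.03. The gene was P4ha2, a catalytic subunit of prolyl hydroxylase, with 41.0 CPM in the control, 93.3 and 97.3 with the Trim28 hairpins, and 148 and 149 in the shWtx-labelled libraries (log2 fold change 1.22 with the Trim28 hairpins, adjusted p = 0.0485). Of 7 tested procollagen proteinases, enhancers and cross-linking enzymes, Lox rose, which encodes lysyl oxidase, the enzyme that starts the cross-links of collagen and elastin. It stood at 12.8 CPM in the control, 78.5 and 68 with the Trim28 hairpins, and 23.6 and 31.6 in the shWtx-labelled libraries (2.50, SE 0.50, adjusted p = 0.00227). Like Col1a2 and Col5a2, Lox was higher in both shTrim28 libraries than in the other 3. Of 5 tested receptors Itgb1, the common β chain of collagen-binding integrins, rose (1.14, adjusted p = 0.0257), of 4 collagen-degrading proteinases Mmp14, a membrane-bound collagenase (1.00, adjusted p = 0.0451), and of 13 partners of type IV in basement membranes Nid1, which bridges laminin and type IV collagen (1.51, adjusted p = 0.00324). In these 5 lists 0 members were called lower in shTrim28 against the control, beside 2.26% of all rows tested. With so few members tested, that count gives no direction for the lists.

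Loxl1, Serpinh1 and Pcolce, also on these lists, were chosen after their values were seen. Loxl1, a lysyl oxidase homologue, was at 25.7 CPM in the control (14.3 estimated counts), 29.9 and 37.5 with the Trim28 hairpins, and 0 in both libraries labelled shWtx. Taking 3 counts over that pair as the floor, the control level was 9.29 times that floor. The counting error of the control's 14.3 counts is left out of this value. Serpinh1, the collagen chaperone HSP47, stood at 157 CPM in the control, 220 and 212 with the Trim28 hairpins, and 85.8 and 81.4 in the shWtx-labelled libraries, and Pcolce, an enhancer of procollagen processing, at 88.0, at 153 and 125, and at 53.1 and 43.0. For both, shTrim28 was higher than the shWtx-labelled libraries (log2 fold changes 1.35 and 1.45, adjusted p = 0.000701 and 0.00117), with the control between the groups.

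Among markers of fibroblasts other than collagens, 10 of 20 tested were called higher in shTrim28 against the control and 0 lower, beside 4.27% and 2.26% of all rows tested. In the shWtx-labelled libraries 5 were called higher and 2 lower, beside 10.9% and 4.94% of all rows. The 2 called lower were Mgp (log2 fold change −2.59) and Dcn (−1.33). Mgp stood at 60.5 CPM in the control, 41.1 and 43.2 with the Trim28 hairpins, and 11.8 and 5.73 in the shWtx-labelled libraries. Dcn stood at 141 CPM in the control, 191 and 279 with the Trim28 hairpins, and 56.4 and 54.5 in the shWtx-labelled libraries. Acta2, Snai2, Cdh11 and Cxcl12, called higher in both comparisons, stood at 1.86, 3.38, 5.71 and 9.15 CPM in the control. Such genes could pass the filter through the hairpin libraries where they were high, so the counts called higher were partly fixed by the filter. The markers with the lowest p in shTrim28 were the smooth muscle genes Tagln (log2 fold change 2.71) and Acta2, Timp3 (1.58), an inhibitor of matrix proteinases, and Lgals1 (1.33). Acta2 had 1 count in the control and was 30.9 times as high with the Trim28 hairpins (exact 95% counting interval 5.44 to 1233). It stood at 97.8 and 48.6 CPM with those hairpins and at 69.7 and 63.4 in the shWtx-labelled libraries. Against the control, Acta2 and Tagln were called higher in the shWtx-labelled libraries too (edgeR adjusted p = 7.3e-05 and 0.00812). Timp3 and Lgals1 were not called there. In sum the 24 genes of the list reached 3183 CPM in the control, 6668 and 7693 with the Trim28 hairpins, and 3114 and 3663 in the shWtx-labelled libraries, and Lum was at 0 in the control, shTrim28 replicate 1 and the shWtx-labelled library replicate 2, and Ccdc80 in the control. Lgals1, the most abundant gene of the list, held 988 of the 3183 CPM in the control. Without Lgals1 the other 23 summed to 2195, 4410, 4980, 2227 and 2515 CPM in that order of libraries. Per 100 CPM of the whole list, Lgals1 included, fibrillar collagens stood at 8.8 CPM in the control, 11.1 and 11 with the Trim28 hairpins, and 11.2 and 11 in the shWtx-labelled libraries. The chemoreceptor level was not subtracted here. The fibrillar sums were 22.4 times that level in the control, 8.95 and 14.8 times with the Trim28 hairpins, and 2.10 and 2.86 times in the shWtx-labelled libraries. The likeness of the hairpin libraries in this ratio therefore holds only before subtraction. Col1a2 alone stood at 4.44 CPM per 100 in the control, 6.93 and 7.26 with the Trim28 hairpins, and 5.74 and 5.51 in the shWtx-labelled libraries, and Col3a1 at 1.27, at 0.504 and 1.019, and at 0.447 and 0.548. The sums of the fibroblast list and of the fibrillar chains were thus both higher in shTrim28 than in the control, and the part of the former in the collagen differences was not tested.

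Endoderm and pluripotency markers were also read. Of 8 tested markers of parietal and visceral endoderm, the embryonic source of type IV collagen, 0 were called higher or lower in shTrim28 against the control in edgeR (1 at an unadjusted p under 0.05), and 3 of the 17 also stand on the list of basement membrane partners. The list summed to 598 CPM in the control, 987 and 969 with the Trim28 hairpins, and 561 and 646 in the shWtx-labelled libraries. Without Sparc, its most abundant gene, the other 16 summed to 211, 331, 270, 306 and 339 CPM in that order, so that shTrim28 no longer stood above the shWtx-labelled libraries. Of 11 pluripotency markers, 9 were called lower and 0 higher, beside 2.26% and 4.27% of all rows, led by Zfp42 (−2.98), Utf1 (−2.61), Dppa5a (−1.93) and Esrrb (−2.50). That list summed to 6387 CPM in the control, 1874 and 1898 with the Trim28 hairpins, and 2996 and 3269 in the shWtx-labelled libraries, and none of its 11 genes was at 0 in any library.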

How the data were processed

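The authors deposited a table of estimated counts per gene, not scaled between libraries; reads were aligned to RefSeq per the labels, on mm9 per the submitters' processing notes, while for the aligner, the counting program and the use of strand no source used here gives a name. The members, lists and tests were chosen with earlier results of these data known. Estimated counts were rounded, filtered by filterByExpr with the 3 groups (10878 rows left) and tested with edgeR 4.0.16 (quasi-likelihood, TMM scaling, all 5 libraries, no covariates). Every adjusted p is two-sided, from edgeR, by Benjamini-Hochberg over all rows tested, with a threshold of 0.05. The control is 1 library and was assumed to vary like the hairpin pairs, which gave 2 residual degrees of freedom, moderated across genes (biological coefficient of variation 0.168). SEs were derived from the F statistic and are approximate. On simulated data (9908 genes, 200 of them changed 4-fold in shTrim28), 59.5% were recovered against the control and 79.5% against shWtx.

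Transcript lengths came from GENCODE M21 (GRCm38) for 19173 of 28642 rows and for all 40 collagen genes; whether the counting scales with length is not known. The chemoreceptor level used 1334 genes. Of 30-base stretches in collagen transcripts, at most 0.346% occurred in other genes, except in Col9a3 (7.14%) and Col22a1 (1.39%). Named genes were collagens with 10 counts in some library or past the threshold, and of each other list those past the threshold in shTrim28 against the control, at most 4 by p. Beyond this rule, Snai2, Cdh11, Cxcl12, Mgp and Dcn were named after their values were seen, as were Loxl1, Serpinh1 and Pcolce. Lum and Ccdc80 were named as genes at 0 counts, and Sparc as the most abundant gene of its list. The deposited repeat tables were not used here.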

Additional observations from a re-analysis of the deposited data

How the results depend on the processing

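No paired analysis was possible because the hairpin groups share no replicate numbers in the labels. The count of collagen genes called in shTrim28 against the control (2) was 1 with the DESeq2 Wald test and 1 with the chemoreceptor level subtracted, and 0 to 2 with 1 library left out. In the shWtx-labelled libraries against the control (1) it was 2 without a filter, 0 with the DESeq2 Wald test (1 at an unadjusted p under 0.05), 3 with only the groups compared, and 0 to 3 with 1 library left out. In shTrim28 against the shWtx-labelled libraries (5) it was 1 with the DESeq2 Wald test, 3 with the chemoreceptor level subtracted, and 0 to 3 with 1 library left out. DESeq2 gave no adjusted p for 15, 8 and 13 of the 17 genes in the 3 comparisons, so its counts cover few of them. Without shTrim28 replicate 1 edgeR called 0 rows in all 3 comparisons (1675, 2804 and 3113 at an unadjusted p under 0.05), and the cause was not tested.

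Of the called differences, those of Col1a2 kept their call in 10 of 11 alternatives in each of its 2 comparisons, with log2 fold changes from 1.69 to 1.98 against the control and 1.21 to 1.66 against the shWtx-labelled libraries. Signs changed only in comparisons in which the gene was not called. In shTrim28 against the control, Col6a1 was at −0.028 with DESeq2 size factors, −0.0015 with only the groups compared and −0.018 on rows with a transcript length (chosen after seeing the data). With 1 library left out, values in the same comparison ran from −0.34 to 0.93 for Col3a1, −0.45 to 0.17 for Col4a1, −0.086 to 2.43 for Col4a3, −0.89 to 0.77 for Col4a4, −0.46 to 0.23 for Col6a1 and −0.035 to 0.99 for Col13a1. In the shWtx-labelled libraries against the control, subtraction put Col4a2 at −1.25, Col5a2 at −0.29, and Col5a1 and Col6a3, with few counts left, at −5.31 and −3.41, values that depend on the prior count. Col4a2 was at −0.0058 without a filter. With 1 library left out they ran from −0.58 to 0.37 for Col1a1, −0.58 to 0.16 for Col2a1, −0.72 to 0.47 for Col5a1 and −0.41 to 1.21 for Col6a2. In shTrim28 against the shWtx-labelled libraries, Col6a2 and Col18a1 were at 0.013 and 0.011 without a filter, and with 1 library left out ran from −0.71 to 0.84 and from −0.59 to 0.36.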

Other observations

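The table held 6 pairs of collagen genes that follow each other directly among protein-coding genes in the RefSeq annotation of GRCm38.p6: Col9a1 and Col19a1, Col3a1 and Col5a2, and Col4a4 and Col4a3 on chromosome 1, Col4a1 and Col4a2 on chromosome 8, Col6a2 and Col6a1 on chromosome 10, and Col4a6 and Col4a5 on chromosome X. Col6a1 held 67.3% of the counts of its pair in the control (95% Wilson interval 51.5 to 80.4), 50.6% (29.0 to 71.0) and 64.3% (55.9 to 71.3) with the Trim28 hairpins, and 30.8% (19.9 to 44.3) and 63.9% (38.6 to 81.5) in the shWtx-labelled libraries. The shWtx-labelled library replicate 1 lay below the control and shTrim28 replicate 2 beyond counting error. Col3a1 held 78.6% of its pair with Col5a2 in the control (61.6 to 90.2), 33.3% (17.9 to 50.7) and 63.3% (56.8 to 69.4) with the Trim28 hairpins, and 40.2% (23.4 to 59.3) and 53.8% (29.1 to 76.8) in the shWtx-labelled libraries. These shares were not tested across groups.

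Without a filter, Col4a3, Col4a5 and Col23a1 were also called, and Col1a1 was not, in shTrim28 against the shWtx-labelled libraries, and Col14a1 in the shWtx-labelled libraries against the control. Col23a1, a transmembrane collagen, stood at 5.50 CPM in the control, 3.74 and 1.73 with the Trim28 hairpins, and 16.6 and 17.7 in the shWtx-labelled libraries. The latter values were 1.27 and 1.59 times the chemoreceptor level.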
